A study of Mus musculus with 7 samples.

Results

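Mouse chromosome 6 carried 404 of the 6198 peaks in 3 ChIP-seq peak lists for the protein SET in mouse embryonic stem cells. The members were taken as every entry on chromosome 6, which gave 215 of 3446 peaks for SET in R1 cells (6.24%), 82 of 1186 for HA-tagged SETα in KH2 cells (6.91%) and 107 of 1566 for HA-tagged SETβ in KH2 cells (6.83%). The chromosome was chosen by its SETα and SETβ peak counts, which thin out in its middle, so the counts that mark that stretch are described here and not tested.

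SET is a histone chaperone, a protein that binds histones and assists their placement on and removal from DNA, and it is also known as an inhibitor of histone acetylation and of a protein phosphatase. SETα and SETβ are isoforms of SET that differ at the amino-terminal end. In ChIP-seq, DNA fragments bound by the protein are precipitated and sequenced, and a peak is an interval where a peak caller found more reads than it expected from background. Chromosome 6 carries, among others, the HoxA cluster of developmental regulators and Nanog, a pluripotency factor of embryonic stem cells.

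Each group had 1 library. Endogenous SET was precipitated from the R1 embryonic stem cell line with an anti-SET antibody. The isoforms were over-expressed in KH2, another embryonic stem cell line, with doxycycline at 1 μg/mL for 8 hours, and were precipitated with an antibody against the HA tag. SET and isoform libraries therefore differ in antibody, cell line and induction at once, and these cannot be told apart. No HA precipitation from untagged KH2 cells was used here, and the input and linker histone H1 samples were not analysed here. As background on the line, KH2 cells carry the doxycycline-responsive transactivator at the Rosa26 locus, which is also on chromosome 6. Its position relative to the peaks was not determined, because the gene positions at hand are on a different build from the peaks. With no replicates, no difference below has a replicate check. The 95% intervals reflect only how many peaks were counted. They treat the peaks of a library as independent of each other and say nothing of the spread between libraries.

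The isoform lists were sparse over a long middle stretch of chromosome 6 where the SET list was not. Peaks were counted by midpoint in 30 bins of 5 Mb. The sparse stretch was set as the longest run of adjacent bins in each of which the SETα and SETβ counts summed to less than their mean of 6.3 per bin. It ran from 55 to 120 Mb, 13 bins, or 44.4% of the span between the first and last peak of the chromosome. It held 12 SETα peaks (14.6% of that list on the chromosome), 15 SETβ peaks (14.0%) and 96 SET peaks (44.7%, Wilson interval 38.2 to 51.3%). The SET share thus lay at the share of the span, and both isoform shares, which the choice of bins made low, lay under it.

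Bin by bin, SETα had 0 to 3 peaks per 5 Mb in the stretch (median 1) and 1 to 8 in the other 17 bins (median 4). SETβ had 0 to 4 in the stretch (median 1) and 1 to 9 elsewhere (median 5). SET had 4 to 15 in the stretch (median 6) and 2 to 13 elsewhere (median 7), so the ranges of all 3 lists overlapped between the zones. Each isoform list was at 0 in 5 bins of the stretch and in 0 bins elsewhere, and 4 bins held neither isoform. The fullest bin of the SET list, from 95 to 100 Mb with 15 peaks, lay inside the stretch and held 0 SETα peaks and 1 SETβ peak. The fullest bin of both isoform lists was that from 140 to 145 Mb, with 8 SETα and 9 SETβ peaks, beside 13 SET peaks; SETβ also had 9 peaks from 35 to 40 Mb.

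**Figure D1:**
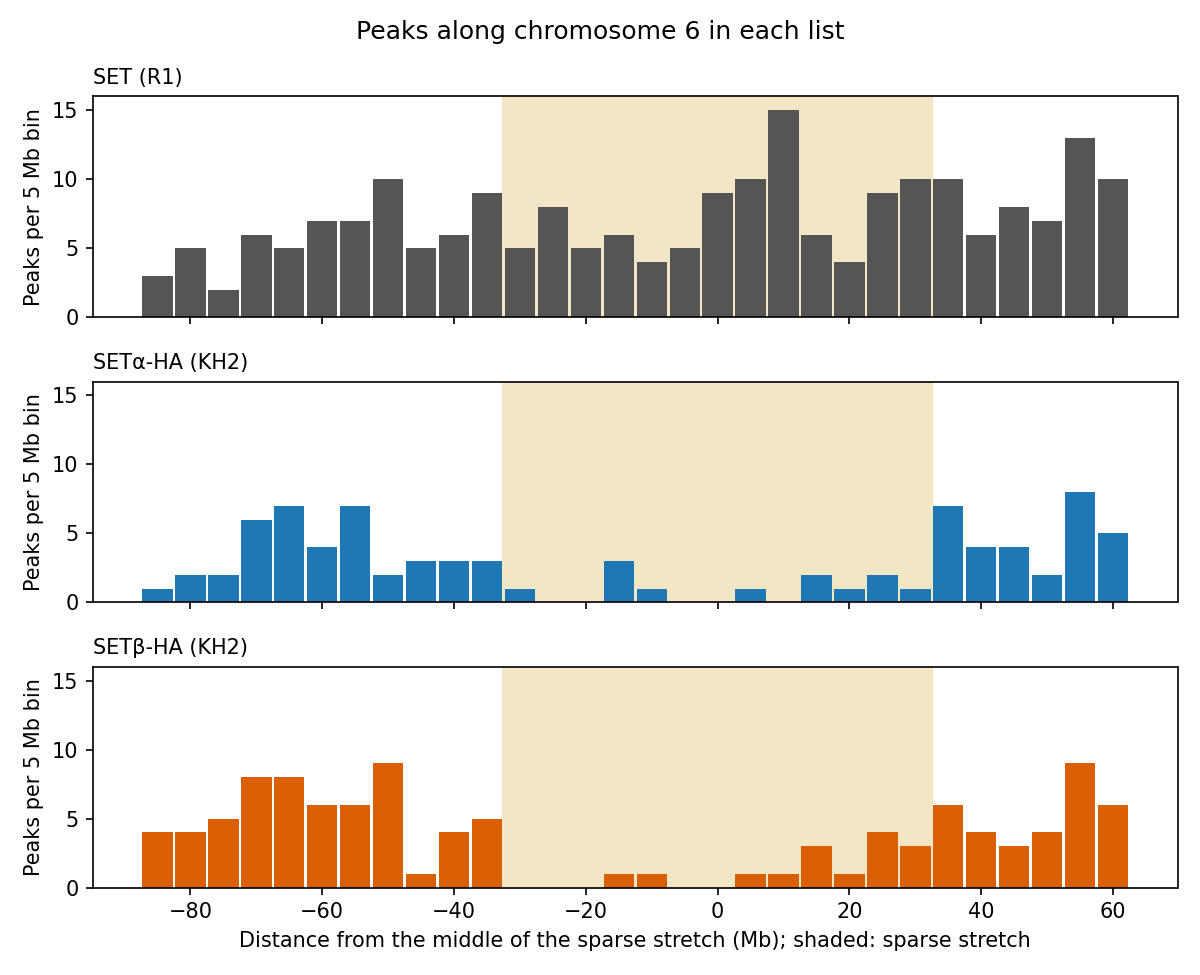
Peaks per 5 Mb bin along chromosome 6 (vertical axis, same scale in each panel) against distance from the middle of the sparse stretch (horizontal axis, Mb), with SET in R1 cells on top and SETα and SETβ in KH2 cells below; the stretch is shaded. The isoform panels hold 12 and 15 peaks in the shaded part, and the SET panel holds 96.

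On the proximal side the summed isoform count was 8 from 50 to 55 Mb, 1 from 55 to 60 Mb and 0 in each of the next 2 bins. On the distal side it was 6 from 110 to 115 Mb and 4 from 115 to 120 Mb, and then 13 from 120 to 125 Mb. The bin from 110 to 115 Mb was closest to the limit of 6.3 from below. Outside the stretch, 4 bins also lay under the limit, those from 0 to 5 Mb (5 peaks), 5 to 10 Mb (6), 40 to 45 Mb (4) and 135 to 140 Mb (6), but they formed no run longer than 2 bins. The edges depend on the bins and lists used: under the alternatives the start lay between 40 and 75 Mb and the end between 100 and 120 Mb. The last SETα peak before the stretch was at 52397812 to 52398001 (mm9, as are all positions here, counted from 1) and the first inside it at 59996516 to 59996745. For SETβ these were at 52120619 to 52121140 and at 71967295 to 71967452. SETβ resumed past the distal edge at 120265783 to 120266091 and SETα at 121044634 to 121044911. SET had peaks close to both edges, at 54050967 to 54051182 and 55743229 to 55743436 on the proximal side and at 119277539 to 119277750 and 120570878 to 120571100 on the distal side.

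Within the stretch the thinning was not even. From 60 to 70 Mb there were 0 peaks of either isoform and 13 SET peaks. From 70 to 80 Mb there were 4 SETα, 2 SETβ and 10 SET peaks. From 80 to 100 Mb there were 1 SETα, 2 SETβ and 39 SET peaks, which for SET was 1.95 per Mb. From 100 to 120 Mb there were 6 SETα, 11 SETβ and 29 SET peaks, so the isoform lists partly refilled before the distal edge, to 0.3 and 0.55 peaks per Mb, the SETβ value being close to its density of 0.534 on the 16 autosomes other than 1, 6 and 8. The 40 Mb from 60 to 100 Mb held 9 isoform peaks in all and 62 SET peaks.

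The longest intervals without an isoform peak lay in the stretch or across its proximal edge. The stretch was set by low counts of these peaks, so long gaps there follow from the choice. Neither isoform had a peak between 77237133 and 93131116, a gap of 15.9 Mb with 22 SET peaks in it. The next gap common to both lists ran from 59996746 to 71967294 (11.97 Mb, 14 SET peaks), and the one after it from 52398002 to 59996515 (7.60 Mb, 7 SET peaks). Taken alone, SETα had its 3 longest gaps at 76386319 to 93502596 (17.1 Mb), 59996746 to 71967307 (11.97 Mb) and 93502754 to 103264573 (9.76 Mb). SETβ had its 3 longest at 52121141 to 71967294 (19.8 Mb), 77237133 to 93131116 (15.9 Mb) and 96129033 to 102306044 (6.18 Mb). SET gaps were shorter, and a list of 215 peaks leaves shorter gaps on average than lists of 82 and 107. The longest were 9003937 to 13639161 (4.64 Mb), 104381848 to 107405065 (3.02 Mb) and 55743437 to 58464806 (2.72 Mb). The median distance between adjacent peaks of a list was 0.422 Mb for SET, 0.642 Mb for SETα and 0.681 Mb for SETβ. The longest SET gap lay outside the stretch, and 3 SETβ peaks fell in it.

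In peaks per Mb, SETα had 0.861 outside the stretch and 0.185 inside it, a ratio of 0.21. SETβ had 1.13 and 0.231, a ratio of 0.20. SET had 1.46 outside and 1.48 inside, a ratio of 1.01 (exact binomial limits 0.76 to 1.33). For every 100 SET peaks there were 12.5 SETα and 15.6 SETβ peaks inside, and 58.8 and 77.3 outside. The isoform counts set the stretch, so their ratios had to be low and are given with no limits, here and in the comparisons by score and width below. The run was also located with 1 isoform list at a time. The SETα list alone placed it at 75 to 120 Mb, where SETβ had 14 peaks against 93 outside (ratio 0.34). The SETβ list alone placed it at 55 to 110 Mb, where SETα had 9 peaks against 73 outside (ratio 0.20). Since the chromosome was chosen on both lists, these too are descriptions, and the isoform libraries share cell line, antibody and treatment.

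The flanks of the stretch differed between lists as well. On the proximal side, 51.8 Mb from the first peak to 55 Mb, there were 65 SET, 40 SETα and 60 SETβ peaks, or 1.25, 0.771 and 1.16 per Mb. On the distal side, 29.5 Mb from 120 Mb to the last peak, there were 54, 30 and 32 peaks, or 1.83, 1.02 and 1.09 per Mb. SET density was thus lowest on the proximal flank, intermediate in the stretch (1.48 per Mb) and highest on the distal flank. The isoform densities were low in the middle and high on either side.

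Outside the stretch, isoform densities on chromosome 6 were closer to those of chromosomes 1 and 8, where the isoform lists are dense, than to those of the other 16 autosomes. SETα had 0.861 peaks per Mb there, against 0.852 on chromosome 1, 1.08 on chromosome 8 and 0.404 on the other 16 autosomes, 2.13 times the last. SETβ had 1.13, against 1.23, 1.27 and 0.534, and stood at 2.12 times the other autosomes. Inside the stretch, SETα density was 0.46 times that of the other autosomes and SETβ density 0.43 times. Taking out the bins with few isoform peaks raises the density of what remains, so both sets of ratios depend on the choice of the stretch. Over its whole length the chromosome stood at 1.39 times the other autosomes for SETα, and for SETβ at 1.37 times. SET was at 1.02 times (0.83 to 1.25) the other autosomes inside the stretch and 1.01 times (0.84 to 1.22) outside it. The number of copies of these chromosomes in KH2 and R1 cells was not tested.

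The higher density outside and the lower density inside were both seen among peaks scoring under 100. The authors' peak score, whose scale the files do not state, has a lowest value of 40 or 40.01 in each list, and under 60 is called weak here. Outside the stretch, weak SETα peaks were 2.34 times as dense as on the other autosomes, and weak SETβ peaks 2.60 times. Inside, they were at 0.37 and 0.38 times, from 5 SETα and 8 SETβ peaks. Peaks scoring 60 to under 100 numbered 3 inside (0.36 times the other autosomes) and 23 outside (2.21 times) for SETα. For SETβ they numbered 3 (0.42 times) and 18 (2.03 times). Peaks scoring 100 or more numbered 4 inside (0.94 times) and 7 outside (1.32 times) for SETα, an inside to outside density ratio of 0.71. For SETβ they numbered 4 (0.60 times) and 6 (0.72 times), an inside to outside ratio of 0.83. These numbers are too small to show whether strong peaks share the deficit inside or the excess outside. For SET the inside to outside ratio was 0.98 (0.72 to 1.33) for 182 weak peaks and 1.17 (0.52 to 2.59) for 29 peaks from 60 to under 100.

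**Figure D2:**
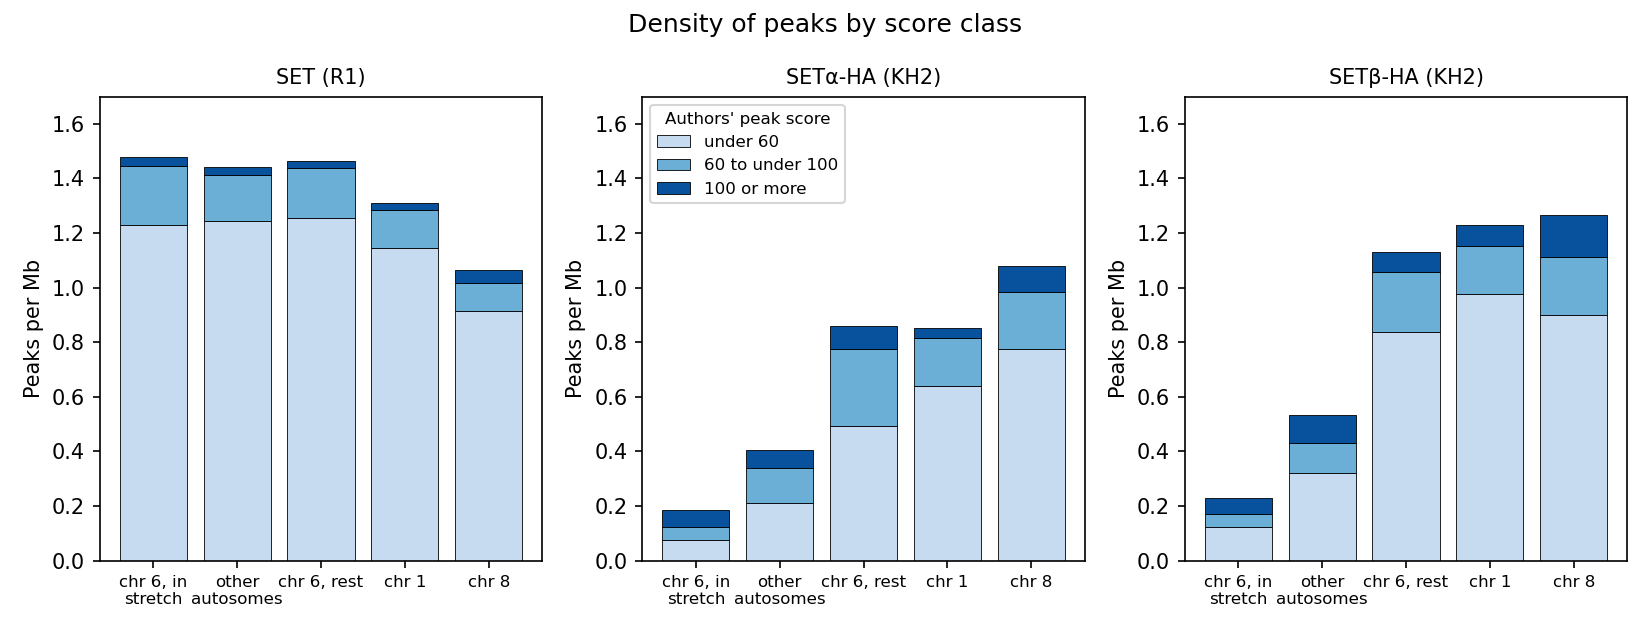
Peaks per Mb (bars) in the sparse stretch, the 16 autosomes other than 1, 6 and 8, the rest of chromosome 6, chromosome 1 and chromosome 8, for each list, divided by the authors' peak score. For the isoforms the rest of chromosome 6 (0.861 and 1.13 per Mb) stands near chromosome 1 (0.852 and 1.23) and the stretch (0.185 and 0.231) stands lowest; SET bars are near 1.5 in both parts of chromosome 6.

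The same rule was applied to the other autosomes. Chromosome 6 was chosen for its sparse middle, so a place at the top of a ranking below restates that choice, and the values serve to show its size. The longest run of bins below a chromosome's own mean isoform count was 65 Mb on chromosome 6 and 10 to 35 Mb (median 20) on the other 18 autosomes. Longer chromosomes have room for longer runs, and chromosomes 1 to 5, with spans from 148 to 194 Mb, had runs of 15 to 30 Mb. Isoform density in the run was 0.21 times that outside it on chromosome 6. On the others it was 0.23 (chromosome 4) to 0.80 times (median 0.47). The sparsest run per Mb was on chromosome 4 (0.2 isoform peaks), against 0.415 on chromosome 6 and 1.65 on chromosome 8. The run of chromosome 6 thus stood apart by its length more than by its depth. The 65 Mb of adjacent bins with the fewest isoform peaks held 0.33 times the chromosome's mean on chromosome 6. On the others it held 0.64 (chromosome 13) to 1.07 times (chromosome 18). On chromosomes 15 to 18, with spans from 86.6 to 99.5 Mb, 65 Mb is most of the chromosome, which pulls the value towards 1. Chromosomes 1 to 5 had 0.83 to 0.89 times, and chromosome 7, with a span of 148 Mb, had 0.76 times. SET in the same bins of chromosome 6 was at 1.03 times its mean. The longest interval without an isoform peak was 15.9 Mb on chromosome 6, against 3.18 to 11.6 Mb (median 6.59) on the others. The 11.6 Mb gap was on chromosome 7, at 53263367 to 64829660, and held 2 SET peaks, where the chromosome 6 gap held 22. These values come from 1 pair of libraries and carry no test.

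**Figure D3:**
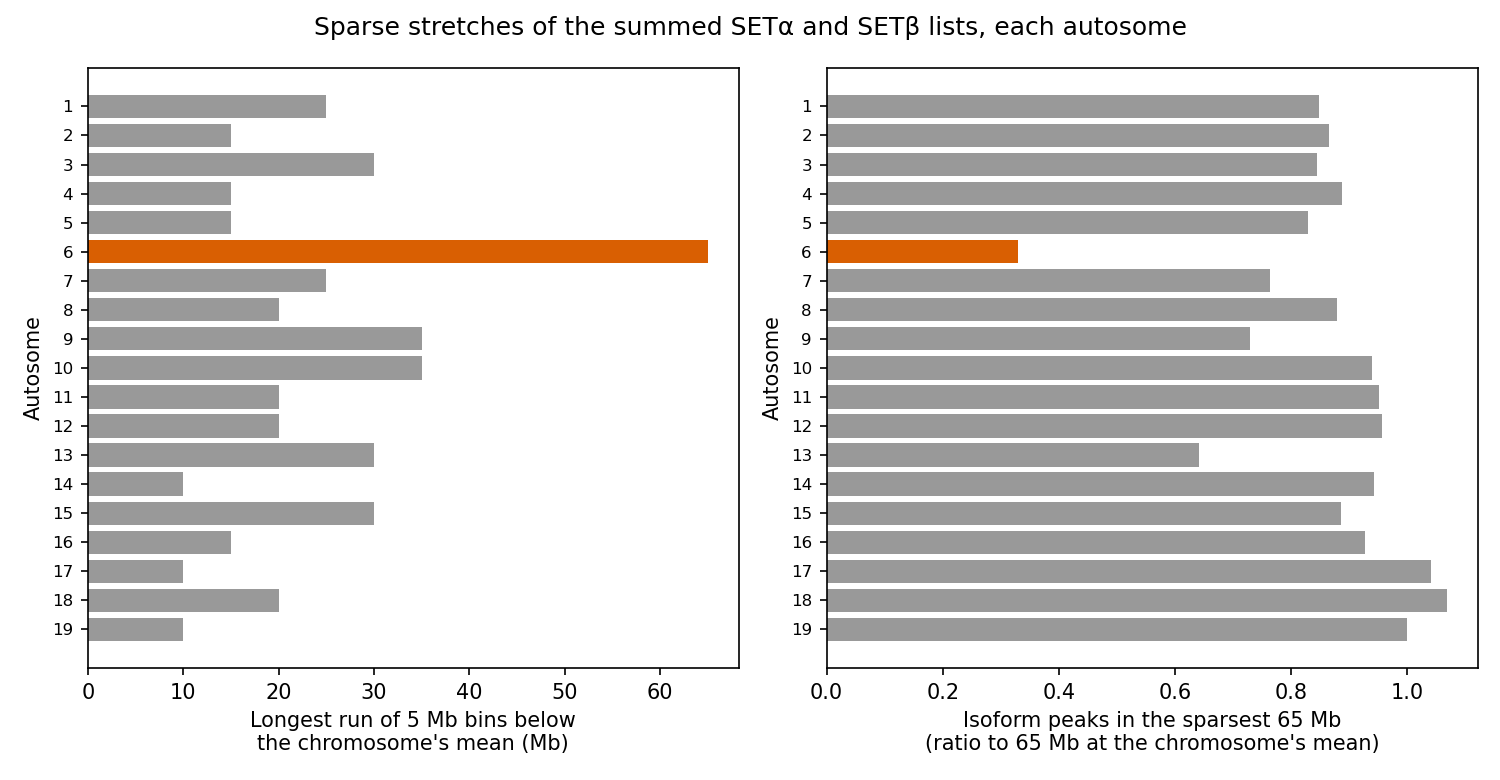
For each autosome (vertical axis), the length in Mb of the longest run of 5 Mb bins whose summed SETα and SETβ count is below the chromosome's mean (left), and the isoform peaks in its sparsest 65 Mb relative to 65 Mb at the chromosome's mean (right). Chromosome 6, in orange, has 65 Mb on the left and 0.33 on the right; chromosome 19 is too short for more than a single window, so its right-hand value of 1 carries no information.

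Isoform peaks in the stretch were narrower at the median than those elsewhere on the chromosome, with wide intervals on the few inside peaks. SETα peaks had a median width of 194 bp inside (interquartile range 143.5 to 233 bp, n = 12, binomial interval of the median 124 to 242 bp) and 246.5 bp outside (185.5 to 272 bp, n = 70, 223 to 260 bp). SETβ peaks had 244 bp inside (159 to 288 bp, n = 15, interval 159 to 301 bp) and 279 bp outside (215 to 309 bp, n = 92, 255 to 295 bp). The difference of medians was -52.5 bp for SETα and -35 bp for SETβ. With the binomial interval of the inside median alone, and the outside median taken as fixed, it ran from -122.5 to -4.5 bp for SETα and from -120 to 22 bp for SETβ. The SETα interval included 0 under 6 of 9 alternatives. SET peaks had 194 bp inside (164.5 to 223 bp, n = 96) and 198 bp outside (161 to 219.5 bp, n = 119), which differ by 4 bp. Peaks under 200 bp made up 50% of the SETα peaks inside (Wilson interval 25.4 to 74.6%) and 32.9% outside (23.0 to 44.5%), and 40% (19.8 to 64.3%) against 18.5% (11.9 to 27.6%) for SETβ. On the other 16 autosomes these shares were 41.1% and 33.7%, with median widths of 219 bp and 250 bp. Both inside intervals of the median include these widths, and both outside intervals lie above them. On chromosome 1 the shares were 28.5% and 19.7% (medians 239 and 263 bp). On chromosome 8 they were 38.4% and 19.8% (225 and 272.5 bp). The narrower inside medians are thus relative to the rest of chromosome 6 and do not mark the stretch off from the other 16 autosomes. Scores were compared as well, on few peaks. Those at 100 or more made up 33.3% of SETα peaks inside (Wilson interval 13.8 to 60.9%, 4 peaks) and 10% outside (4.93 to 19.2%). For SETβ they made up 26.7% (10.9 to 52.0%, 4 peaks) against 6.52% (3.02 to 13.5%). The intervals of the zones overlap in both lists. On the other 16 autosomes the shares were 16.2% for SETα and 19.2% for SETβ. Median widths of peaks scoring 100 or more were 112 bp inside and 113 bp outside for SETα, and 160 and 136.5 bp for SETβ. How much of the width difference goes with score was not tested.

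Both wide and narrow isoform peaks were fewer per Mb in the stretch. Of SETα peaks at least 200 bp wide, 6 lay inside and 47 outside (density ratio 0.16), and of narrower ones 6 and 23 (0.33). For SETβ the counts were 9 and 75 (0.15), and 6 and 17 (0.44). The difference between the classes was not tested. The widest peak of the chromosome was a SETβ peak of 522 bp at 52120619 to 52121140 (score 65.2), the last SETβ peak before the stretch. The widest SETα peak, of 342 bp at 39264873 to 39265214 (50.2), and the widest SET peak, of 339 bp at 120950619 to 120950957 (48.7), also lay outside it.

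Exact scores recurred within each list, at limited ranges of width. Of the SETα peaks on the chromosome, 8 had the score 61.29, with widths of 153 to 190 bp, and 6 had 110.55, at 99 to 158 bp. In the SETβ list 10 peaks had 59.02, at 178 to 221 bp, and 9 had 74.34, at 151 to 216 bp. In the SET list 23 peaks had 47.34, at 160 to 212 bp. A score of 110.55 was shared by 39 SETα peaks over the genome. Of the 4 SETα peaks in the stretch at 100 or more, 3 had this score. Equal scores therefore do not single out a site, and ranks among such peaks are ties.

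**Figure D4:**
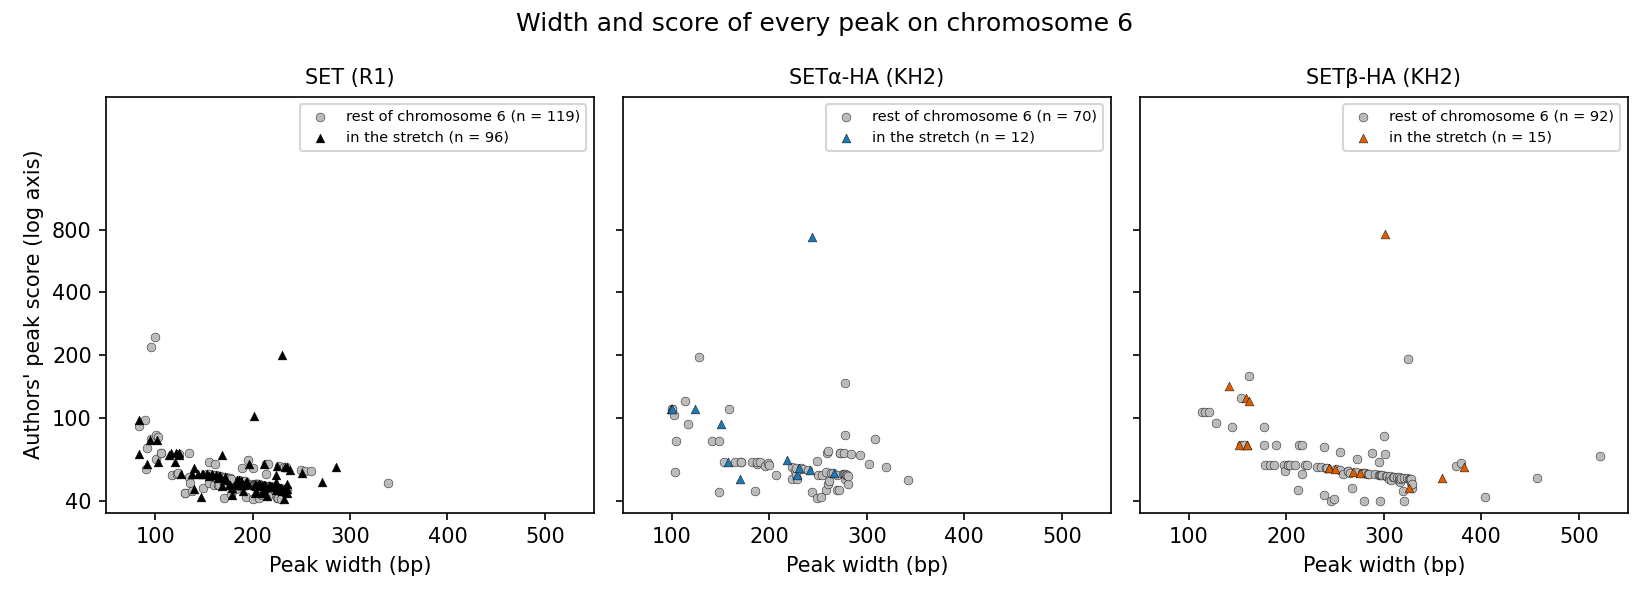
Width in bp (horizontal axis) and the authors' score (vertical axis, log scale) of every peak on chromosome 6 in each list, with triangles for peaks in the sparse stretch and grey circles for the rest. Rows of equal score are visible, and the highest point of each isoform panel, at 736 and 762, is in the stretch.

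The strongest isoform site of the chromosome was inside the sparse stretch. At 103599030 to 103599330 the SETβ score was 762 (width 301 bp), the SETα score at 103599068 to 103599311 was 736 (244 bp), and the SET score at 103599064 to 103599293 was 200.4 (230 bp). These 3 midpoints lay within 11 bp of each other. The next isoform scores on the chromosome were 196 for SETα and 191 for SETβ, so this site stood far above the rest in both lists, while in the SET list it came after the 2 sites near 15 Mb described below. The other site of the stretch found in all 3 lists was at 71967219 to 71967457, where SET scored 102.2, SETα 93.5 and SETβ 124, with midpoints within 63 bp. It was the first SETβ peak of the stretch and ended the 19.8 Mb SETβ gap.

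The other leading isoform peaks of the stretch had no partner. For SETα these were at 76386219 to 76386318 (100 bp) and 105474462 to 105474560 (99 bp), each with the score 110.55. A SETα peak with the same score at 114580411 to 114580534 (124 bp) tied with them. For SETβ the second peak of the stretch was at 77236992 to 77237132 (141 bp, score 141). In the SET list the next peak of the stretch, at 98272650 to 98272732 (83 bp, score 97.9), overlapped neither isoform. It lay in the SETα gap from 93502754 to 103264573.

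Outside the stretch, a pair of sites near 15 Mb led all 3 lists. The site at 15886020 to 15886344 scored 244 for SET (100 bp), 196 for SETα (128 bp) and 191 for SETβ (325 bp). The site at 15481524 to 15481801 scored 218 for SET (96 bp), 147 for SETα (278 bp) and 159 for SETβ (162 bp), with midpoints within 1 bp. At the first site SETβ had the widest peak and at the second SETα had it. The remaining top peaks were SETα at 25285420 to 25285532 (score 120) and 24849288 to 24849387 (110.55, a score that 6 SETα peaks of the chromosome share), found in no other list, and SETβ at 38243530 to 38243682 (124), which overlapped a SET peak with a score of 58.5.

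Few isoform peaks coincided. On chromosome 6, overlap with SETβ by at least 1 bp was found for 8 of 82 SETα peaks (9.76%, 5.03 to 18.1% by Wilson), against 15.0% of SETα peaks over all chromosomes. From the other side, 8 of 107 SETβ peaks (7.48%, 3.84 to 14.1%) overlapped SETα, against 11.3% over all chromosomes. Both intervals include the genome-wide share. On the 16 autosomes other than 1, 6 and 8, the shares were 18.2% for SETα and 13.7% for SETβ. The SETα value lies just above the chromosome 6 interval, and the SETβ value lies within its interval. On chromosomes 1 and 8, 6.06% and 10.9% of SETα peaks overlapped SETβ, which lowers the genome-wide share. Overlap with SET was found for 9 SETα peaks (10.98%, 5.88 to 19.6%, against 9.61% over all chromosomes) and 11 SETβ peaks (10.3%, 5.84 to 17.5%, against 9.39%). Of the 215 SET peaks, 9 (4.19%) overlapped SETα, against 3.31% over all chromosomes, and 11 (5.12%) overlapped SETβ, against 4.27%. Together 13 (6.05%, 3.57 to 10.1%) overlapped either isoform, against 5.34% over all chromosomes. The shares that involve SET are near those over all chromosomes. Overlap with SET on the other 16 autosomes, at 11.2% for SETα and 10.98% for SETβ, was also near that on chromosome 6. It was lower on chromosomes 1 and 8, at 3.64% and 3.62% for SETα and at 2.52% and 4.94% for SETβ. These differences between chromosomes were not tested.

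Overlap was compared between the zones. In the stretch 2 of 12 SETα peaks overlapped SETβ (16.7%, 4.70 to 44.8%), and outside it 6 of 70 did (8.57%, 3.99 to 17.5%). The difference was 8.10 percentage points with a Newcombe interval of -6.82 to 36.6. For SETβ it was 2 of 15 (13.3%) against 6 of 92 (6.52%), a difference of 6.81 points (-5.06 to 31.6). For overlap with SET, the difference was 6.67 points for SETα (2 of 12 against 7 of 70, -8.45 to 35.3) and 3.55 points for SETβ (2 of 15 against 9 of 92, -8.80 to 28.5). All 4 intervals include 0 and are wide, so neither a loss nor a gain of overlap was detectable with 12 and 15 peaks. The overlapping peaks in the stretch were the same 2 sites each time, those at 71967219 to 71967457 and 103599030 to 103599330.

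Seen from the SET list, 2 of 96 peaks in the stretch overlapped an isoform peak (2.08%, 0.57 to 7.28%) and 11 of 119 elsewhere did (9.24%, 5.24 to 15.8%). That difference was -7.16 points (-13.9 to -0.60), and its interval reached or passed 0 under 5 of 10 alternatives. The stretch was chosen for its few isoform peaks, which leaves fewer to overlap, so a lower share inside follows from the choice. SET peaks that overlapped an isoform had a density ratio of 0.23 inside to outside. That is near the 0.21 of all SETα peaks and the 0.20 of all SETβ peaks. The interval of the difference is therefore no evidence that overlap was lost in the stretch. SET peaks in no other list numbered 94 inside and 108 outside, a density ratio of 1.09 (0.82 to 1.45).

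Sites common to the isoforms on chromosome 6 were few, and nearly all were SET sites as well. Of the 8 SETα peaks that overlapped SETβ on chromosome 6, 7 also overlapped SET (87.5%), against 78 of 178 over all chromosomes (43.8%). The first share rests on 8 peaks, and its difference from the second was not tested. The exception among the 8 was the first site of the chromosome, at 3151373 to 3151584, where SETα scored 43.7 and SETβ 44.9. Besides the 4 sites above, the 7 sites of all 3 lists were at 16455456 to 16455664 (scores 67.6 for SET, 77.1 for SETα and 59.0 for SETβ), 28380819 to 28381033 (51.2, 61.3 and 59.0) and 126432747 to 126432980 (57.1, 110.6 and 74.3). The largest distance between midpoints at these 7 sites was 1 to 92 bp (median 38). Their median widths were 176 bp for SET, 153 bp for SETα and 189 bp for SETβ.

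A further 6 sites had a SET peak and a peak of 1 isoform, and none of the 6 was in the stretch. With SETα these were at 20875711 to 20875826 (SET score 56.9, SETα 93.5) and 23280571 to 23280798 (53.9 and 77.1). With SETβ they were at 38243426 to 38243682 (SET 58.5, SETβ 124), 122337056 to 122337180 (71.7 and 107), 134993197 to 134993409 (97.9 and 74.3) and 141021763 to 141022096 (60.2 and 61.5). The isoform peaks found in another list were narrower and higher, with medians of 149 bp and 93.5 for 10 SETα peaks and 199 bp and 90.6 for 12 SETβ peaks, than those in no other list, at 243 bp and 57.1 (72 SETα peaks) and 278 bp and 54.3 (95 SETβ peaks).

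Close neighbours were rare on the chromosome. SETα and SETβ peaks lay within 10 kb of each other without overlap at 3 places, none in the stretch. They were separated by 3.10 kb at 52120619 to 52124465, next to the proximal edge, by 4.32 kb at 140479832 to 140484661 and by 6.20 kb at 24983088 to 24989780. Within a list, neighbours at this distance were found for 4 SET pairs, 1 SETβ pair and 0 SETα pairs. Of the SET pairs, 2 lay in the stretch, at 93079386 to 93083417, inside the 15.9 Mb gap of the isoforms near its distal end, and at 93951171 to 93959554, past that end.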

How the data were processed

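The submitters' processing notes name Bowtie 0.12.7 (which aligns reads), MACS 1.4 (which calls peaks) and mm9. Their parameters, the use of the inputs and the read depth are not given in the sources used here. Each deposited list holds 1 interval, name and peak score per row for 1 library. Since a peak score can rise with depth, scores ranked only peaks of the same list. Classes with equal limits need not mean equal signal in different lists. With depth unknown, no interval on a peak's signal can be given, and numbers of peaks in different lists cannot be compared as amounts of binding.

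Peaks were counted by midpoint in 5 Mb bins, and the density outside the stretch used the span from the first to the last peak of any list. Overlap meant at least 1 bp. Shares have Wilson intervals, differences of shares Newcombe intervals, density ratios exact binomial limits and medians binomial order-statistic intervals, all at 95%. No significance test was run, since each group had 1 library. Named were, for chromosome 6, the 5 highest peaks of each list, the 3 highest in the stretch, the widest peak, the peaks beside each edge, the 3 longest gaps and every site of 2 or more lists; neighbours within 10 kb, tied scores and the chromosome 7 gap were chosen after their values were seen. The chromosome, the lists and the rules were chosen with earlier results of these data known. Alternatives were other edges, bins, limits, scores and overlaps. The scripts were tested on simulated lists, where the planted stretch was recovered to within 1 bin and every planted overlap was found in 100 of 100 simulations. The planted stretch was emptier of isoform peaks than the real one, and its peaks were placed evenly at random. The simulations therefore check the code and do not show how well the edges are located in these data. Gene positions at hand were on GRCm38, so peaks were not assigned to genes. Computation used scipy 1.17.1, pandas 2.3.3 and numpy 2.4.6 in Python 3.11.15, and figures matplotlib 3.10.9.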

Additional observations from a re-analysis of the deposited data

How the results depend on the processing

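There were 123 alternative values for 13 results under 13 settings. Of these values, 114 stayed within 1 bin of the edges or within the interval of the value reported. A direction whose interval excluded no difference was reversed in 0 of them. This tally is no measure of robustness, since most settings placed the stretch anew where isoform counts were low. The settings with SETβ alone and with the median gave the same stretch and values. Both other overlap rules repeated the values reported. The edges moved most: the start was at 40 Mb with 10 Mb bins and with scores of at least 60, and at 75 Mb when located by SETα alone, and the end was at 110 Mb when located by SETβ alone or with the median as limit, and at 100 Mb with scores of at least 60. With scores of at least 60 the SET density ratio was 0.72, from 11 and 22 peaks, the SET width difference was -22 bp and the difference in SET overlap with either isoform was -22.7 points. The interval of the last difference also reached or passed 0 with the edges at 60 to 120 Mb, with either isoform list alone and with the median as limit. The density ratio, which the choice of the stretch lowers, was 0.19 to 0.29 for SETα and 0.13 to 0.35 for SETβ. The width difference was -79.5 to -18 bp for SETα and -119 to -14 bp for SETβ. The 4 overlap differences of the isoform lists each took both signs among the alternatives. Leaving out the end bins, and leaving out the sites of all 3 lists, were chosen after seeing the data. No paired analysis was possible because each group had 1 library. With depth unknown, a site missing from a list was not called, which does not show that it was not bound.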
